A study of Mus musculus with 6 samples.

Results

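The troponin genes were followed in radii and ulnae, the long bones of the forearm, from newborn mice carrying a mutation in one of them, Tnni2. Members were the probe sets whose platform annotation held exactly 1 gene symbol of the form Tnnc, Tnni or Tnnt followed by 1, 2 or 3. Of the 8 mouse genes that this form could match, 7 had a probe set, so the set held 7 of the 5780 genes named by 1 symbol and 7 of 8997 probe sets, with 1 probe set for each gene. They were 3 fast skeletal forms (Tnnc2, Tnni2 and Tnnt3), 3 slow forms (Tnnc1, Tnni1 and Tnnt1) and the cardiac T form Tnnt2. Tnni3, the cardiac form of troponin I, was not analysed here.

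Troponin is the calcium switch of striated muscle and sits on the thin filament together with actin and tropomyosin. Troponin C binds calcium, troponin I holds the filament in the off state until calcium arrives, and troponin T ties the complex to tropomyosin. Each subunit comes in forms built for fast fibres, slow fibres or heart, and the slow form of troponin C also serves the heart. Newborn mouse limb muscle is still maturing, and slow and cardiac forms are known to be more widely expressed in developing than in adult fast muscle.

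Total RNA of these bones was measured on 6 single-colour Affymetrix whole-transcript arrays, 3 for wild-type littermates (wild-type) and 3 for animals with the del175k allele of Tnni2 (del175k mutant). All animals were newborn and of strain 129sv. Whether the mutants carried 1 or 2 copies of the allele, and whether an array held bone of 1 animal, is not given in the sources used here. The p-values below thus rest on the spread from sample to sample, part of which may be technical.

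Values were probe set intensities on a linear scale as the authors deposited them, and array medians ran from 39.6 on wild-type replicate 1 to 48.4. Wild-type replicate 1 stood apart, with 1205 probe sets under an intensity of 20 against 405 to 558 on the other arrays. Every probe set in the table reached 20 on at least 3 arrays, a level filter that the labels do not describe, and all 7 members reached 20 on all 6 arrays. Bone and cartilage markers were present: 11 of 14 were measured, among them Col1a1 between 6552 and 7807 and Col2a1 between 2540 and 4002. The listed bone genes Runx2, Bglap and Bglap2 were not measured, and Sp7 was dimmer, between 21.3 and 65.4. Muscle RNA was present too, with the skeletal actin gene Acta1 between 1955 and 3614. Of 16 genes expressed in muscle of either fibre type 12 were measured. The lowest single value among these was 18.1, but the level filter largely sets such a floor, so it is no sign of muscle. The summed intensity of the 12 muscle genes ran from 3017 to 6237 on the wild-type arrays and from 4354 to 5219 on the mutant arrays. It was lowest on wild-type replicate 1 and highest on wild-type replicate 3. Skin markers, with 6 of 8 measured, summed to 1798 and 1248 on wild-type replicates 1 and 2 and to 460.4 on mutant replicate 2, against 47.3 to 75.3 on the other arrays. In bulk tissue such as this, fewer muscle fibres and less RNA per fibre cannot be told apart.

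No troponin gene passed the test between genotypes, and the mutated gene Tnni2 was read at 127.4 or more on every mutant array. The 3 fast forms had log2 differences from -0.13 to 0.07 with all arrays weighted equally, while Tnnt1, Tnnc1 and Tnnt2 had mutant levels 1.30 to 1.44 times those of wild-type (geometric means). Measured within each array, the fast form was lower against the slow form in mutant bone for troponin C and troponin T, with groups that did not overlap, but not for troponin I. The exact permutation p was 0.1 for each of these 2 pairs, the smallest value that 3 arrays against 3 can give. With limma on log2 intensities and Benjamini-Hochberg adjustment over the 8997 probe sets, 0 of 7 members passed at 0.05, and so did 0% of all probe sets. At an unadjusted p under 0.05 there were also 0 of 7 members, against 7.44% of all probe sets. The groups did not overlap in 0 of 7 members, against 13.1% of all probe sets.

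**Figure D1:**
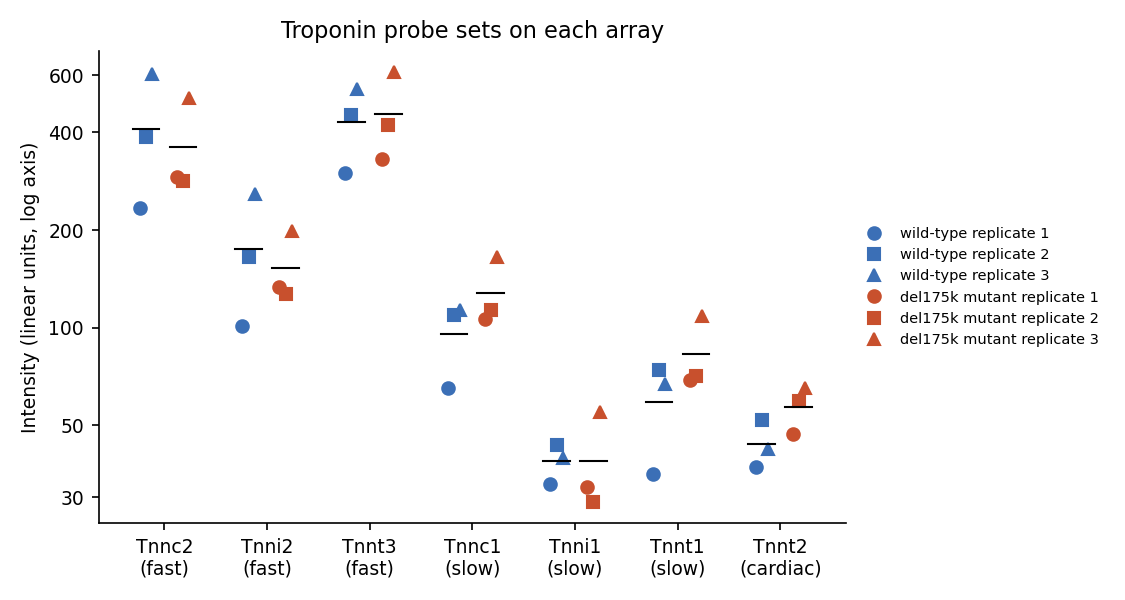
Intensity of each troponin probe set (log axis, linear intensity units) on the 3 wild-type arrays (blue) and the 3 del175k mutant arrays (orange), with symbols for the replicate number and bars for the group means. The groups overlap for all 7 genes, and wild-type replicate 1 is the lowest array for 6 of them, the exception being Tnni1. Heights of different genes depend on their probes and are not compared.

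Troponin I comes first, since the mutation lies in its fast form. Tnni2 read 101.5, 164.7 and 257.7 in wild-type replicates 1, 2 and 3 and 133.8, 127.4 and 198.2 in mutant replicates 1, 2 and 3, the order kept below. The mutant values all lay inside the wild-type range, and the highest wild-type array was 2.54 times the lowest. The log2 difference of Tnni2, mutant minus wild-type, was -0.12 ± 0.33 (SE, limma adjusted p = 0.943), with a 95% interval from -0.87 to 0.63. A codon deletion need not alter how much transcript is made, so this level is no check of the genotype labels. Tnni1, the slow form, was dimmer on its own probes, reading 33.0, 43.6 and 39.6 in wild-type bone and 32.2, 29.1 and 54.9 in mutant bone. Its group means were both 38.7, but the mutant arrays spread more widely (SD 14.1 against 5.37, n = 3 each), since mutant replicate 3 was the highest of all arrays and mutant replicate 2 the lowest. The log2 difference of Tnni1 was -0.05 ± 0.27 (SE, limma adjusted p = 0.972; 95% interval -0.65 to 0.55).

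Troponin C, the calcium sensor, showed a fast form inside its wild-type range and a slow form with a higher mean. Tnnc2, the fast form, read 233.4, 387.4 and 607.1 in wild-type bone and 291.4, 283.1 and 509.2 in mutant bone. All mutant values again lay inside the wild-type range, and the log2 difference was -0.13 ± 0.36 (SE, limma adjusted p = 0.942; 95% interval -0.94 to 0.68). Tnnc1, shared by slow fibres and heart, read 65.0, 109.2 and 113.3 in wild-type bone and 106.1, 113.7 and 165.5 in mutant bone. Mutant replicate 3 was highest and wild-type replicate 1 lowest, while the other 4 arrays lay between 106.1 and 113.7. The log2 difference of Tnnc1 was 0.44 ± 0.28 (SE, limma adjusted p = 0.725; 95% interval -0.18 to 1.06). It was 0.18 when wild-type replicate 1 was left out and 0.24 when mutant replicate 3 was.

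Troponin T, the tropomyosin anchor, was measured in all 3 of its forms. Tnnt3, the fast form, read 300.9, 452 and 544.3 in wild-type bone and 332.2, 422.1 and 613.5 in mutant bone. Both groups covered much the same range, with a log2 difference of 0.07 ± 0.29 (SE, limma adjusted p = 0.964; 95% interval -0.59 to 0.73). Tnnt1, the slow form, had the widest range of the members, reading 35.4, 74.2 and 67.1 in wild-type bone and 69.0, 70.8 and 108.8 in mutant bone. Its highest array was 3.07 times its lowest, and only wild-type replicate 1 and mutant replicate 3 stood away from the other 4. The log2 difference of Tnnt1 was 0.53 ± 0.31, or 1.44-fold (SE, limma adjusted p = 0.717; 95% interval -0.17 to 1.23). Leaving out wild-type replicate 1 gave 0.20, and leaving out mutant replicate 3 gave 0.32. Tnnt2, the form of heart and of embryonic skeletal muscle, read 37.2, 51.9 and 42.4 in wild-type bone and 47.1, 59.3 and 65.1 in mutant bone. Here 2 of 3 mutant arrays lay above all wild-type arrays, and the log2 difference was 0.38 ± 0.22 (SE, limma adjusted p = 0.713; 95% interval -0.11 to 0.87). Heart markers give no count to set beside it, since only 2 of 11 were measured, Nkx2-5 and Tbx5, and Tbx5 also patterns the forelimb.

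**Figure D2:**
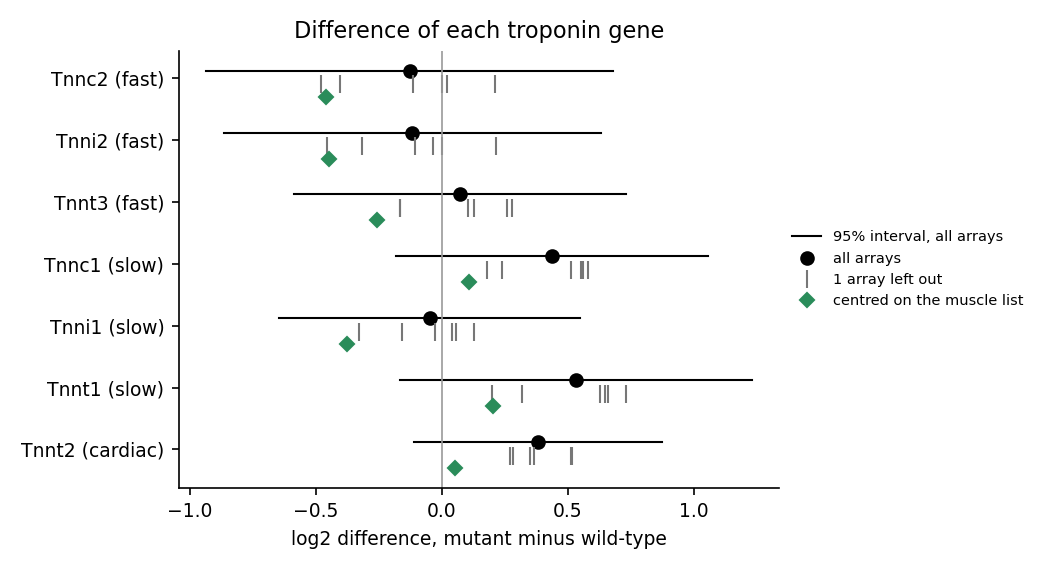
Log2 difference, mutant minus wild-type, of each troponin gene: black points and lines are the value and 95% interval over all 6 arrays, grey ticks the values with 1 array left out, and green diamonds the values after each array was centred on the genes of muscle of either fibre type. All 7 intervals include 0, and the ticks of Tnnc2, Tnni2, Tnnt3 and Tnni1 lie on both sides of 0.

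The small differences turned direction when particular arrays were left out. Tnni2 and Tnnc2 were both at 0.21 without wild-type replicate 3 and at 0.001 and 0.02 without mutant replicate 2. Tnnt3 was at -0.17 when wild-type replicate 1 was left out and at -0.17 when mutant replicate 3 was. Tnni1 was at 0.04 without wild-type replicate 2, at 0.05 without mutant replicate 1 and at 0.13 without mutant replicate 2. Tnnc1, Tnnt1 and Tnnt2 kept a higher mutant mean with any 1 array left out. Array weights estimated from the fit, which gave wild-type replicate 1 the lowest weight (0.23), put Tnnc2 at -0.61, Tnni2 at -0.56, Tnni1 at -0.25 and Tnnt3 at -0.20, and lowered Tnnc1 to 0.16 and Tnnt1 to 0.20; none passed (limma).

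With all 6 arrays, a scale set by muscle genes lowers the difference of every probe set, members included, by the same amount. That amount is the mean log2 difference of the muscle genes, 0.33. The 12 measured genes of muscle of either fibre type had a median log2 difference of 0.26, with 9 higher and 3 lower in the mutants where 56.7% of all probe sets were higher, and ranged from Ckm, the muscle creatine kinase, at -0.12 to Myot, a Z-disc protein, at 0.95. With each array centred on their mean, Tnni2 was at -0.45, Tnnc2 at -0.46, Tnni1 at -0.38 and Tnnt3 at -0.26. On that scale Tnnt1 was at 0.20, Tnnc1 at 0.11 and Tnnt2 at 0.05, and the median of all probe sets was -0.28. This muscle difference rested on wild-type replicate 1. Leaving that array out, the 12 genes had a mean of -0.006 and a median of -0.008, with 6 higher and 6 lower. Over all probe sets 44.7% were then higher. The centring then moves the members by almost nothing. The direction of Tnnt3 turned with this scaling over all arrays, and 0 of 7 members passed on it (limma, unadjusted p under 0.05 in 0 of 7). The muscle genes were themselves not uniform, with the skeletal actin gene Acta1 at -0.07 beside Myot, and which scale follows RNA per muscle fibre was not tested.

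The ratio of the fast to the slow form within an array does not depend on that scale. Its absolute height reflects how well each probe set binds, so only its change between arrays is read. For troponin C, the ratio of Tnnc2 to Tnnc1 was 3.59, 3.55 and 5.36 in wild-type bone and 2.75, 2.49 and 3.08 in mutant bone. Every mutant ratio was thus below every wild-type ratio, a shift of -0.57 ± 0.21 (SE, n = 3 per group) on the log2 scale, or a wild-type ratio 1.48 times the mutant one. For troponin T, the ratio of Tnnt3 to Tnnt1 was 8.49, 6.09 and 8.11 in wild-type bone and 4.82, 5.96 and 5.64 in mutant bone. These groups did not overlap either, though wild-type replicate 2 and mutant replicate 2 lay close, and the shift was -0.46 ± 0.18 on the log2 scale, or 1.37-fold. For troponin I, the ratio of Tnni2 to Tnni1 was 3.08, 3.78 and 6.50 in wild-type bone and 4.15, 4.38 and 3.61 in mutant bone. The mutant values lay within the wild-type range, with a shift of -0.07 ± 0.33.

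**Figure D3:**
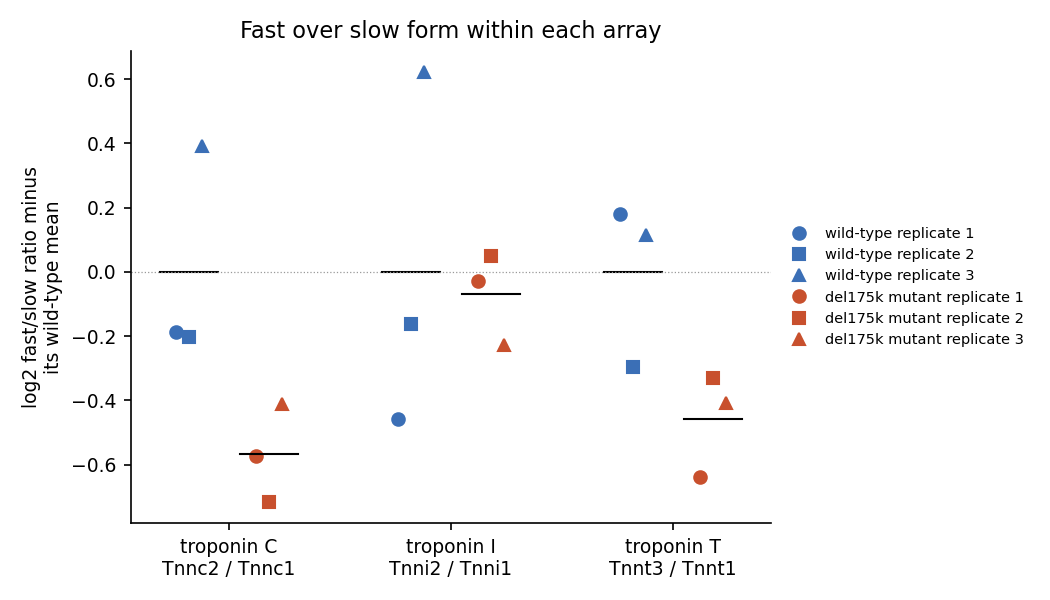
Log2 ratio of the fast to the slow form within each array, set relative to its wild-type mean, for the 3 troponin subunits on 3 wild-type (blue) and 3 del175k mutant arrays (orange), with bars at the group means. Mutant arrays lie below all wild-type arrays for troponin C and troponin T and among them for troponin I.

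The exact two-sided permutation test over the 6 arrays gave p = 0.1 for troponin C, p = 0.1 for troponin T and p = 0.9 for troponin I. With 3 arrays against 3, 0.1 is the smallest value this test can give, so no pair could pass at 0.05. After Benjamini-Hochberg adjustment over the 3 pairs the exact permutation values were 0.15, 0.15 and 0.9. Without wild-type replicate 3 the troponin C shift was -0.37, and that of troponin I turned to 0.24, as it did to 0.01 without mutant replicate 3. Set against Tnnt2 in place of Tnnt1, the fast T form shifted by -0.31 ± 0.25 with overlapping groups (exact permutation p = 0.3).

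Averaged over subunits, the 3 fast minus the 3 slow forms came to -0.15, -0.22 and 0.38 in wild-type bone and -0.41, -0.33 and -0.35 in mutant bone (log2, relative to the wild-type mean). The mutant arrays lay below all wild-type arrays and close together (SD 0.04 against 0.33, n = 3 each), a shift of -0.36. Wild-type replicate 3 carried much of this, since the shift was -0.18 without it. With Tnnt2 counted among the slow forms the shift was -0.38, and without the troponin I genes it was -0.51; both of these settings were chosen after seeing the data.

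Fibre-type genes outside troponin were placed beside this balance. Of 16 listed fast-fibre genes 12 were measured, 3 higher and 9 lower in the mutants, with a median log2 difference of -0.17, and of 12 listed slow-fibre genes 10 were measured, 8 higher and 2 lower, with a median of 0.56. Over all probe sets 56.7% were higher and the median was 0.04. No gene of either list passed (limma). Both medians moved with 1 array: leaving out wild-type replicate 1 gave -0.46 for the fast and 0.16 for the slow list, and leaving out wild-type replicate 3 gave 0.02 and 0.82. In these settings the median of all probe sets was -0.03 and 0.11. Leaving out mutant replicates 1, 2 or 3 put the fast list at -0.06, -0.09 or -0.41 in that order. By smallest p, the fast list was led by Mybpc2, fast myosin-binding protein C (-1.25 ± 0.28 SE, limma adjusted p = 0.441), Sypl2, a protein of the triad membrane (-0.56), and Casq1, the calcium store protein of the fast-fibre reticulum (-0.66). Mybpc2 was dim in mutant bone, at 16.5, 18.0 and 24.2. The 3 higher fast-fibre genes were Myoz1 (0.42), Atp2a1 (0.41) and Pygm (0.32). The slow list was led by Myh7, the slow myosin heavy chain (0.71), Myl3, a slow light chain (0.68), and Mybpc1, slow myosin-binding protein C (0.61). Myl3 was dim in wild-type replicates 1 and 2, at 14.2 and 15.3. The 2 lower slow-fibre genes were Mb (-0.22) and Tpm3 (-0.19). Mb was dim in wild-type replicate 2 and mutant replicate 2, at 16.0 and 16.9. The mean of the fast list minus that of the slow list came to -0.10, 0.06 and 0.04 in wild-type bone and -0.73, -0.72 and -0.44 in mutant bone, relative to the wild-type mean. Groups did not overlap in this balance, and its shift of -0.63 lay between -0.73 and -0.58 when arrays were left out one by one. The fibre lists were chosen with earlier results of these data known, so this gives no independent support.

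**Figure D4:**
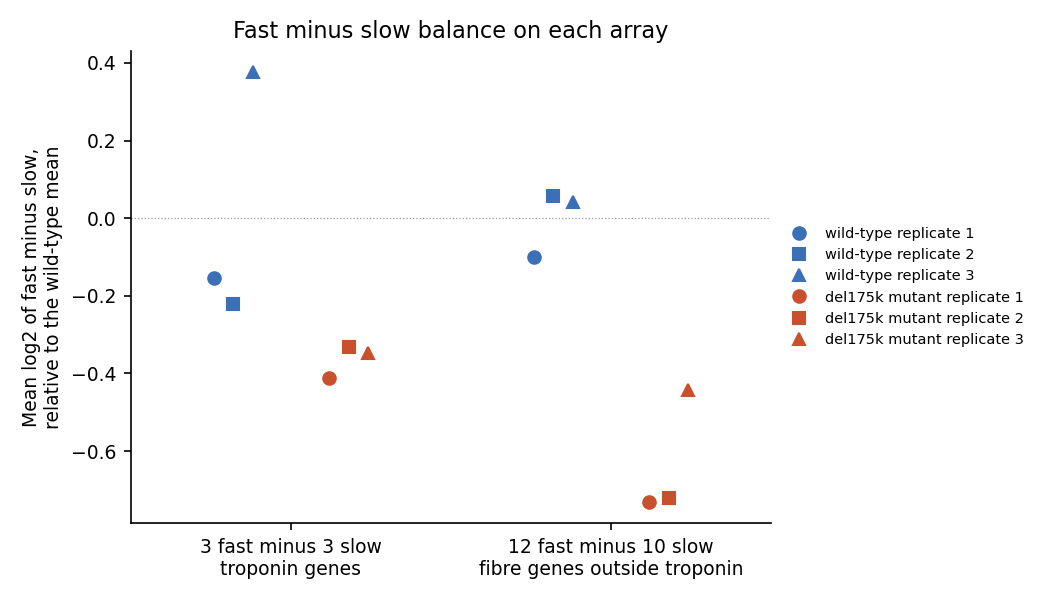
Mean log2 level of fast genes minus that of slow genes on each array, relative to the wild-type mean, for the 3 fast and 3 slow troponin genes and for the 12 fast and 10 slow fibre genes outside troponin. Both balances are lower on all 3 mutant arrays than on any wild-type array, and wild-type replicate 3 stands high in the troponin balance but not in the other.

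The partners of troponin on the thin filament had no settled direction. Of 18 listed genes 13 were measured, 10 higher and 3 lower with all arrays, against 56.7% higher over all probe sets, with a median log2 difference of 0.15, and none passed (limma). Leaving out wild-type replicate 1 turned this to 5 higher and 8 lower with a median of -0.12. All probe sets turned with it, to 44.7% higher and a median of -0.03. The 3 of smallest p were Klhl41, a muscle protein that stabilises nebulin (0.49 ± 0.29 SE, limma adjusted p = 0.72), Nrap, which takes part in myofibril assembly (0.52), and Neb, the thin filament ruler nebulin (0.53). Of 10 developmental muscle genes 7 were measured, 4 higher and 3 lower (median 0.08). That median turned to -0.20 when wild-type replicate 1 was left out and to -0.11 when mutant replicate 3 was. The median of all probe sets was -0.03 and 0.02 in these settings. The developmental genes were led by Myl4, an embryonic light chain (-0.46 ± 0.27 SE, limma adjusted p = 0.716), Myh3, the embryonic heavy chain (0.31), and the transcription factor gene Myog (0.17).

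**Figure D5:**
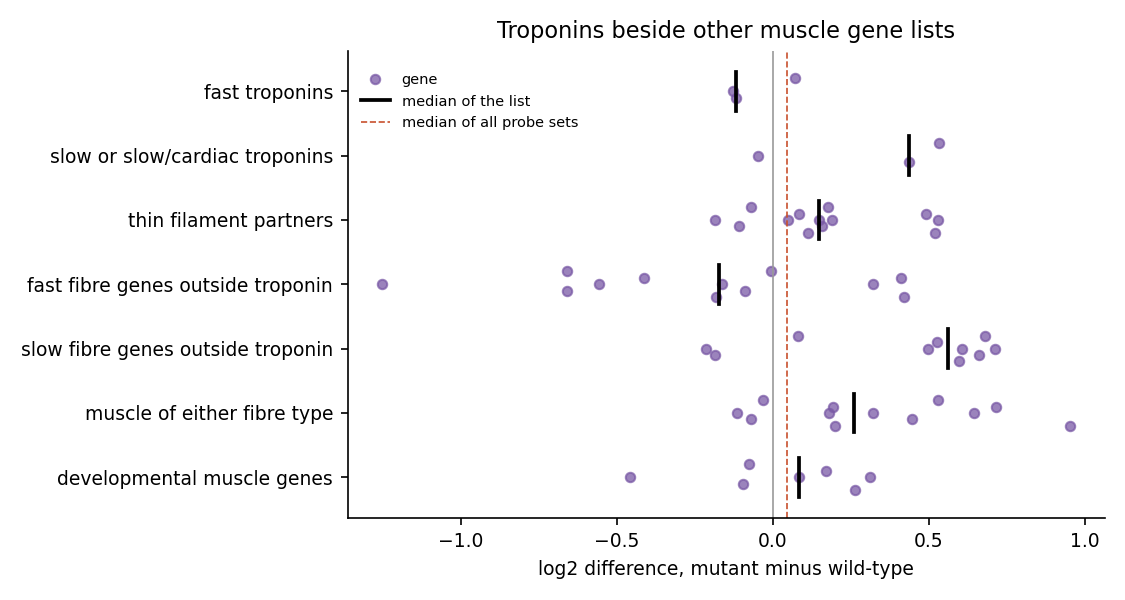
Log2 difference, mutant minus wild-type, of each measured gene in 7 lists over all 6 arrays (points), with the median of each list (black bar) and the median of all probe sets (dashed line). Fast-fibre genes spread from -1.25 to 0.42 and slow-fibre genes from -0.22 to 0.71, while the 3 fast troponins lie between -0.13 and 0.07 and 2 of 3 slow troponins at 0.44 and above.

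Among themselves the members formed pairs with nearly the same profile over the 6 arrays. Tnnc2 and Tnni2 had a Pearson correlation of log2 intensity of 0.992, and Tnnc1 and Tnnt1 one of 0.988. Fast and slow forms of 1 subunit were less alike, at 0.695 for troponin C, 0.796 for troponin T and 0.654 for troponin I. The cardiac T form was closest to Tnnt1 (0.869) and Tnnc1 (0.852), then to the fast form Tnnt3 (0.609). Its values with Tnni1, Tnnc2 and Tnni2 were 0.415, 0.281 and 0.242. Over all 6 arrays Tnni1 was closer to the 3 fast forms (0.654 to 0.761) than to Tnnc1 (0.634) or Tnnt1 (0.621). That order did not hold without wild-type replicate 1. Tnni1 was then at 0.786 with Tnnt1, 0.784 with Tnnt3, 0.75 with Tnnc1, 0.732 with Tnnc2 and 0.637 with Tnni2. All these correlations are descriptions, and the arrays share overall brightness. After centring each of the 6 arrays on its median, the values were 0.99 for Tnnc2 with Tnni2 and 0.978 for Tnnc1 with Tnnt1. Tnnt2 with Tnni2 was then at -0.10. Neighbouring members were not always alike. In the RefSeq gene table of GRCm38.p6, Tnni2 and Tnnt3 are separated by the coding gene Lsp1, and Tnni1 and Tnnt2 by Lad1. The first couple correlated at 0.873 and the second at 0.415.

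Outside the members, 5773 named genes were searched for the 5 most similar profiles of each, by Pearson correlation over 6 arrays. Tnni2 was closest to Nsd2, Klhl31, Ubac2, Nup85 and Ankrd27 (0.992 to 0.99) and Tnnc2 to Nsd2, Gbf1, Pdrg1, Smtnl2 and the perinatal myosin gene Myh8 (0.999 to 0.99). Nsd2 thus came first for both of these fast forms. Tnnt3 was closest to Srsf10, Pnn, Sfpq, Rps2 and Srsf1 (0.994 to 0.984). Among the slow forms, Tnni1 was closest to Cacfd1, Zfp185, Spry1, Frem2 and Chst14 (0.996 to 0.982), Tnnc1 to Ifngr2, Tcf20, Rpl36a, Hpgd and Pja2 (0.988 to 0.985), and Tnnt1 to Rab18, Alg2, Ccar2, Sec63 and Tsg101 (0.988 to 0.98). Tnnt2 was closest to C2cd3, Csnk1g3, Ocstamp, Zeb2 and Rps28 (0.996 to 0.979). These values were picked as the highest among the genes searched, over 6 arrays, and carry no test.

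Promoter sequences are shown for Tnnc1 and Tnnt1, the slow forms with the same profile, and for Tnnc2, the fast partner of Tnnc1. RefSeq windows of build GRCm38.p6 were matched by symbol for 5 of 7 members, with 7 windows in all; Tnni2 and Tnnt3 had none. Each sequence is the 250 bases before the start site, 5′ to 3′ on the strand of the gene, with matches to the E-box (CANNTG, the letters bound by myogenic factors such as MyoD) and to TATAA in capitals on either strand. Tnnc1 lies on the plus strand at chr14:31208062-31208311, Tnnt1 on the minus strand at chr7:4515976-4516225 and Tnnc2 on the minus strand at chr2:164779735-164779984.
Tnnc1: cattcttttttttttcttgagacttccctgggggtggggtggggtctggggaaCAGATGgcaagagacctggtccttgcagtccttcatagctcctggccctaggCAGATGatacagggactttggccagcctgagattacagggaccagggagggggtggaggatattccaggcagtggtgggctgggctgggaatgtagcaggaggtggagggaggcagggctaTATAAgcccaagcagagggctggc
Tnnt1: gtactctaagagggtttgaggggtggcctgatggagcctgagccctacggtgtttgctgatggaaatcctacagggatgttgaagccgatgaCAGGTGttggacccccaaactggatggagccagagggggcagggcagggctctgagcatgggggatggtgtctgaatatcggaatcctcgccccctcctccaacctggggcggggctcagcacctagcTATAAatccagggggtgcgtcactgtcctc
Tnnc2: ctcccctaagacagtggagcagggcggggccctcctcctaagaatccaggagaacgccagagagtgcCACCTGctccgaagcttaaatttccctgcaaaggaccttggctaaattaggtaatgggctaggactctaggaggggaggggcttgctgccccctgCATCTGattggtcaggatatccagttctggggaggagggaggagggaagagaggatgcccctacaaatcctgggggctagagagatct

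The E-box letters occurred in all 7 windows of the members, against 66.2% of 32841 promoter windows of the same length. These windows belong to 5 genes and are not all separate. The 2 windows of Tnni1 overlap, and both E-boxes of the second also lie in the first. The windows of Tnnc1 and Tnnc2 held 2 E-boxes each and that of Tnnt1 held 1, and none overlapped a TATAA match. The letters TATAA stood 24 bases before the start of Tnnc1 and 30 bases before that of Tnnt1, counted from their first base, and were not in the window of Tnnc2. They occurred in 3 of 7 member windows and in 22.8% of all windows. The remaining match lay in a window of the cardiac form Tnnt2, 136 bases before its start. Neither window of the slow form Tnni1 held TATAA. Tnnc2 was the only fast form with a window, so fast and slow forms cannot be compared here. The M-CAT letters CATTCC were in 2 of 7 member windows (Tnnc1 and Tnnt2), against 12.6% of all, and the MEF2 motif was in 0 of 7, against 2.92%. A match is a run of letters and not a bound site.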

How the data were processed

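Values came from the deposited table of summarised probe set intensities on a linear scale, for RNA of 3 wild-type and 3 del175k mutant samples. How the authors corrected background, summarised probes, scaled arrays and filtered probe sets is not given in the sources used here, and per the labels only the array type and labelling kit are known. Of 8997 probe sets, 6398 carried 1 gene symbol in the platform annotation, 576 several and 2023 none. All 7 members matched RefSeq by Entrez identifier.

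Intensities were taken to log2 with no pseudocount, filter or further scaling. Group means were fitted in limma 3.58.1 (R 4.3.3; lmFit, then eBayes), two-sided, with Benjamini-Hochberg adjustment over 8997 probe sets and a threshold of 0.05. Levels are means of intensities, and differences are mutant minus wild-type on the log2 scale. Standard errors of ratio shifts come from the spread within groups. Named genes were all members, the 3 genes of smallest p in each list and the 5 most similar profiles of each member. Ckm, Acta1, Myot, the fibre genes that went against their list and the marker genes given with levels were named after their values were seen. A gene with several probe sets was represented by its brightest. The lists overlap in Tpm3, Actc1, Acta1 and Neb. The members and lists were chosen with earlier results of these data known. The fit was tested on simulated data drawn independently for each probe set with no array effect. This says nothing about how it behaves with an array that stands apart. Alternatives were 2 scalings, centring on muscle genes, a filter on dim probe sets, an intensity trend, array weights, a replicate block, gene means and leaving out each array. The number of arrays limits the precision. Plots used matplotlib 3.10.9 and pandas 2.3.3 under Python 3.11.15.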

Additional observations from a re-analysis of the deposited data

How the results depend on the processing

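No member passed in any setting tried. Over all probe sets limma called 0, against 18 after centring on the muscle genes, 4 with array weights and 0 to 15 with 1 array left out. With 1 array left out, the log2 difference ranged from -0.33 to 0.13 for Tnni1, from -0.48 to 0.21 for Tnnc2, from -0.46 to 0.21 for Tnni2 and from -0.17 to 0.28 for Tnnt3, so these 4 have no settled direction. Tnnt3 was also at -0.033 after quantile normalization, -0.26 after centring on the muscle genes and -0.20 with array weights, which also put Tnnc2 at -0.61 and Tnni2 at -0.56, outside those ranges. The cause was not tested. Tnnc1, Tnnt1 and Tnnt2 stayed above 0 in all settings tried. The fast to slow shift stayed below 0 for troponin C and troponin T, and for troponin I it ranged from -0.30 to 0.24 with 1 array left out. The replicate numbers are not said to mark litters. Deviations of same-numbered arrays from their group means correlated at -0.107, -0.0255 and 0.315, and those of differently numbered arrays at -0.421 to 0.338. With 3 arrays per group these values cannot show whether the numbers mark pairs. A fit with the replicate number as a block called 0 probe sets, with 681 at an unadjusted p under 0.05 against 669 without it. Each member had 1 probe set, so averaging probe sets left its values as they were.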
